A study of Bos taurus with 16 samples.

Results

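The 7 transcripts described here have the lengths of the bovine mitochondrial genes ND1, ND2, ND3, ND4, ND4L, ND5 and ND6, out of 37925 transcripts in each table. They were taken from a run of 13 adjacent rows, which had been picked out in an earlier look at these data for its high abundance, by their lengths of 956, 1042, 346, 1378, 297, 1821 and 528 nt. All 13 lengths in the run equalled those of the 13 protein-coding genes that RefSeq places on the bovine mitochondrial genome (assembly ARS-UCD2.0). The names rest on length, because the files give Ensembl transcript IDs without gene names and 0 IDs matched that table. A single length is not unique, since 1 other transcript in the files shares that of ND3 and 22 share that of ND4L, so the assignment rests on the run as a whole. The IDs are ENSBTAT00000060571.1 for ND1, ENSBTAT00000060548.1 for ND2, ENSBTAT00000060547.1 for ND3, ENSBTAT00000060543.1 for ND4L, ENSBTAT00000060552.1 for ND4, ENSBTAT00000060577.1 for ND5 and ENSBTAT00000060562.1 for ND6.

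The tissue was the mammary fat pad, a depot of fat and stroma into which the mammary epithelium later grows, from Holstein heifers at birth. Their dams had spent the closing stretch of pregnancy, 54 ± 5 days of a subtropical summer, either under heat stress or with cooling. Titles beginning with HT were read as the heat-stressed group and those beginning with CL as the cooled group, a reading that the labels themselves do not spell out. The series text gives 6 calves per group and the labels list 8 libraries per group without tying libraries to calves, so the spread measured here is that between libraries. The tests and intervals below treat libraries as independent units, which would not hold if some calves gave more than 1 library. The files of cooled replicates 1 and 2 were identical and were counted once, as replicate 1, which left 7 cooled and 8 heat-stressed libraries.

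Complex I, or NADH dehydrogenase, passes electrons from NADH to ubiquinone and pumps protons across the inner mitochondrial membrane. Most of its subunits are encoded in the nucleus, while the ND subunits form the core of its membrane arm and are made inside the mitochondrion. Their messenger RNAs are cut from long transcripts that cover each strand of the mitochondrial DNA. ND6 is the only protein read from the opposite strand, and ND4L and ND4 overlap and stay together on 1 messenger RNA. The 37 nuclear subunits of complex I listed for comparison, and the markers of fat, epithelium, blood and muscle, were not read because the IDs are not paired with names.

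Library totals ran from 40573338 to 55317188 estimated counts, with medians of 46934201 in cooled and 46897138 in heat-stressed libraries. Cooled replicate 4 and heat-stressed replicate 6 often lay at the end of their group that faced the other group, so values are also given without them. The mean length of transcripts outside the 13 rows, weighted by counts, ran from 2649 to 2933 nt in cooled and from 2486 to 2965 nt in heat-stressed libraries. All 7 ND transcripts had whole-number counts in all 15 libraries (within a tolerance of 0.0005), so no reads had been divided between them and other transcripts.

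Together the ND transcripts took a lower share of counts in most heat-stressed libraries than in most cooled ones. In the cooled group the share spanned 1.69% (replicate 4) to 7.40% (replicate 7), with a median of 5.10% and a mean of 5.01% ± 1.95 (SD, n = 7). In the heat-stressed group it spanned 2.24% (replicate 3) to 4.24% (replicate 6), with a median of 3.05% and a mean of 3.19% ± 0.686 (SD, n = 8). The groups overlapped because cooled replicate 4 was the lowest of all 15 libraries, while the next cooled library, at 3.98%, lay above 6 of the 8 heat-stressed ones. The difference of means was -1.82 percentage points, and -2.84 points relative to the counts outside the 13 rows. All 13 rows together took 22.0% ± 7.41 of counts in cooled libraries (SD, n = 7) and 16.1% ± 3.10 in heat-stressed ones (SD, n = 8). The run was selected on its mean share of counts over all libraries, and the ND transcripts were chosen with their log2 fold changes known, so the share is a description with no test. In bulk tissue, fewer cells rich in mitochondria and less mitochondrial RNA per cell cannot be told apart.

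The ND share of the counts in the 13 mitochondrial transcripts was compared next. It was 22.3% ± 3.36 in cooled libraries (SD, n = 7), from 16.8% in replicate 4 to 27.2% in replicate 1, and 19.97% ± 3.54 in heat-stressed libraries (SD, n = 8), from 17.1% in replicate 3 to 27.8% in replicate 6. The difference of means was -2.37 points, which is smaller than the SD of either group, and it was -1.56 points without cooled replicate 1 and -3.48 points without heat-stressed replicate 6. By shares of TPM it was 0.30 points, in the other direction. TPM divides by effective length, which is 97.0 nt for ND3 and 10.0 nt for ATP8, and their part in this reversal was not tested. ND counts were 38.4% ± 8.44 of those of COX1, COX2 and COX3, the cytochrome c oxidase subunits, in cooled libraries (SD, n = 7). They were 32.4% ± 10.5 of the COX counts in heat-stressed libraries (SD, n = 8), where replicate 6 reached 56.6% and the other 7 ran from 25.3% to 35.0%. Heat-stressed replicate 6 was thus the library richest in ND relative to COX of all 15.

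**Figure D1:**
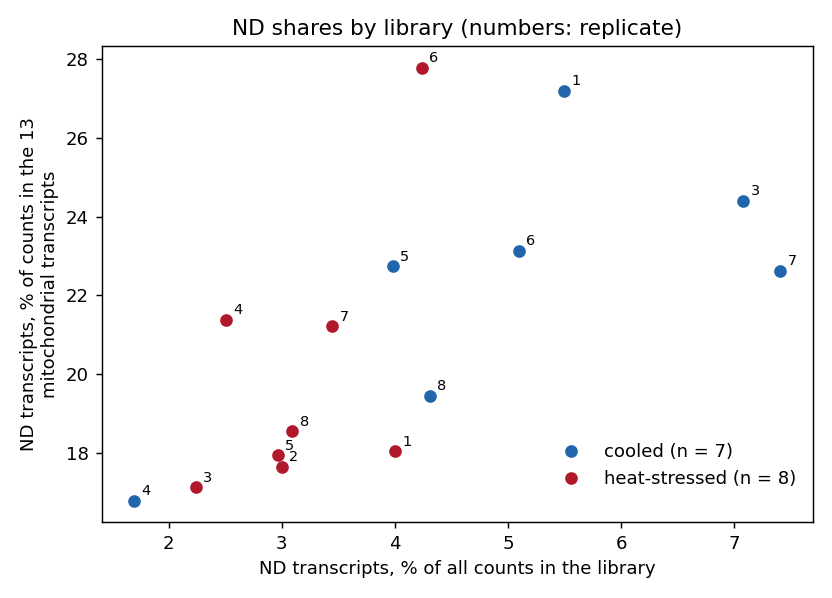
Each point is 1 library, with its replicate number, placed by the ND share of all its counts (x, %) and by the ND share of the counts in the 13 mitochondrial transcripts (y, %). Cooled replicate 4 sits at the lower left with 1.69% and 16.8%, and heat-stressed replicate 6 at the top with 4.24% and 27.8%.

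The ND transcripts differed widely in level when counts per 1000000 counts of the library (CPM) were divided by transcript length in kb. ND3, which encodes a small subunit at the junction of the membrane arm and the arm that oxidises NADH, stood far above the other ND transcripts at 40322 ± 11325 CPM per kb (SD over 15 libraries). Outside the ND genes, COX1 and COX3 reached similar levels, from 28015 to 71159 and from 20720 to 57295 CPM per kb. ND1, whose protein lines the ubiquinone pocket, had 7205 ± 3844 CPM per kb. ND4 and ND2, which encode proton-pumping subunits, had 6394 ± 3844 and 4880 ± 2518 CPM per kb. The lowest were ND4L, a small subunit of the membrane arm, with 2890 ± 1836, ND6, another of its small subunits, with 2404 ± 1266, and ND5, the third of the large pumping subunits, with 1928 ± 1134 CPM per kb.

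Neighbours in this order were compared within each library. ND3 lay above ND1 in 15 of 15 libraries, with a mean log2 ratio of 2.63 ± 0.66 (SD), and ND2 lay above ND4L in 15 of 15, with a mean log2 ratio of 0.80 ± 0.31. The order of ND4 over ND2 held in 13 libraries, that of ND6 over ND5 in 13, that of ND1 over ND4 in 11 and that of ND4L over ND6 in 10. For ND1 over ND4 (log2 ratio 0.19 ± 0.30) and ND4L over ND6 (0.18 ± 0.46) the mean was smaller than the SD between libraries. Whether their mean levels differ was not tested. ND4L lay above ND6 in 6 of 7 cooled libraries and in 4 of 8 heat-stressed ones.

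The order depends on how length is treated for the shortest transcripts. The deposited effective length, which is 249 nt below the full length for rows over 500 nt, is 49.7 nt for ND4L and 97.0 nt for ND3. Per kb of effective length ND4L moved from the fifth place to directly below ND3, while ND3 stayed first and ND5 last. ND3 was also first in counts not divided by length. The excess of ND3 over ND5 per kb ran from 7.11-fold in cooled replicate 3 to 44.2-fold in heat-stressed replicate 2, with a median of 26.0-fold, and the excess over ND1 from 2.40-fold in the same cooled library to 12.6-fold in heat-stressed replicate 4.

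**Figure D2:**
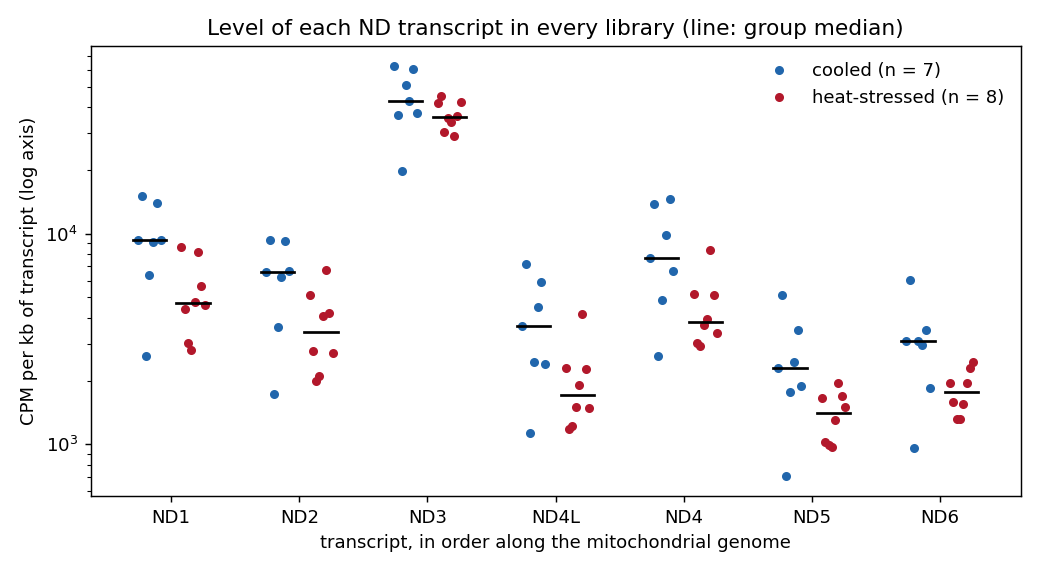
Points are libraries and short lines are group medians, with the level in CPM per kb of transcript on a log axis for each ND transcript in genome order. ND3 lies above every other ND transcript in all 15 libraries, and the lowest cooled point of each transcript is replicate 4.

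The comparison of heat-stressed with cooled gestation was made on all transcripts, and levels below are in CPM of the whole library. The fitted fold changes use TMM scaling between libraries, so they are on another scale than these CPM. None of the 7 ND transcripts passed Benjamini-Hochberg adjustment over the 19180 tested transcripts in edgeR's quasi-likelihood test (adjusted p = 0.996 for each), and neither did any other transcript, 0% of those tested. At an unadjusted p under 0.05 edgeR had 6 of the 7 lower in heat-stressed libraries, where 1.29% of all tested transcripts were lower at that level. The members were chosen with this contrast known, so the 6 are no support for it. DESeq2 called 0 of the 7, and 57 of the 27524 transcripts it tested (0.207%). Limma-voom called 0 of the 7 and 0 of 19180. The fitted log2 fold change was negative for 7 of 7, as for 56.7% of tested transcripts, with a median of -0.99 against -0.06 for all tested transcripts. Lower fitted values were not particular to the ND transcripts. CYTB had -0.86, ATP6 -0.82 and ATP8 -0.70, while COX3, COX1 and COX2 had -0.45, -0.43 and -0.30.

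ND1 ranged from 2519 CPM in cooled replicate 4 through a median of 8923 to 14528 in replicate 3, and from 2672 in heat-stressed replicate 4 through a median of 4464 to 8290 in replicate 1. The cooled median exceeded all 8 heat-stressed values, 5 of 7 cooled libraries lay above every heat-stressed one, and cooled replicate 4 lay below them all. edgeR fitted a log2 fold change of -0.99 ± 0.34 (standard error), with a 95% interval from -1.71 to -0.26. The intervals of fold changes, here and below, are not adjusted for the number of transcripts. Because the members were chosen with this contrast known, an interval without 0 is no support for a difference.

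ND2 ranged from 1813 through 6868 to 9769 CPM in cooled libraries and from 2080 through 3567 to 7029 CPM in heat-stressed libraries (lowest, median, highest). Heat-stressed replicate 6 was the only library of its group above the cooled median. The fitted log2 fold change was -0.90 ± 0.35 (standard error).

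ND4, the most abundant ND transcript after ND3 in counts, ranged from 3619 through 10610 to 20121 CPM in cooled libraries and from 4037 through 5260 to 11562 CPM in heat-stressed libraries. The top value of the heat-stressed group belonged again to replicate 6, and the next was 7168 in replicate 1. ND4 was 2.18-fold lower in the fit, a log2 fold change of -1.12 ± 0.34 (standard error), with a 95% interval from -1.84 to -0.40. Scaled by library size, as the CPM are, the fitted log2 fold change of ND4 was -0.95.

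ND4L ranged from 337 through 1086 to 2136 CPM in cooled libraries and from 352 through 508 to 1238 CPM in heat-stressed libraries. It had the same libraries at the bottom of the cooled group, replicate 4, and at the top of the heat-stressed group, replicate 6, as ND4. The fit gave -1.13 ± 0.36 on the log2 scale (standard error).

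ND5 ranged from 1293 through 4192 to 9354 CPM in cooled libraries and from 1765 through 2554 to 3571 CPM in heat-stressed libraries. Here again the cooled median exceeded all 8 heat-stressed values, and 4 of 7 cooled libraries lay above them all. The cooled group was far more spread, with a 7.24-fold range against 2.02-fold, and whether the spreads differ was not tested. The log2 fold change was -1.02 ± 0.32 (standard error), and -0.70 without cooled replicate 3, the library with the highest value.

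ND6 ranged from 506 through 1636 to 3204 CPM in cooled libraries and from 698 through 940 to 1304 CPM in heat-stressed libraries. As for ND1 and ND5, the cooled median exceeded all 8 heat-stressed values, a pattern of 3 of 7 ND transcripts and of 0.688% of tested transcripts. Among the other mitochondrial transcripts COX3 and CYTB had the same pattern, and COX1, COX2, ATP8 and ATP6 did not. The choice of members used this contrast, so nothing is read from the count of 3. The log2 fold change of ND6 was -0.90 ± 0.30 (standard error), and -0.61 without cooled replicate 3. Whether reads were counted by strand is not given in the sources used here, so reads from ND6 and from RNA of the opposite strand across it cannot be told apart.

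Among the ND transcripts, ND3 differed least between the groups. It ranged from 6853 through 14837 to 21577 CPM in cooled libraries and from 10101 through 12391 to 15686 CPM in heat-stressed libraries. The heat-stressed libraries lay close together, with a 1.55-fold range, and their lowest was replicate 6, the library that was highest for ND2, ND4L, ND4 and ND5. Its fitted value was -0.39 ± 0.24 on the log2 scale (standard error), with a 95% interval from -0.91 to 0.12, and -0.25 without cooled replicate 7. The COX transcripts had fitted values near that of ND3, from -0.45 for COX3 to -0.30 for COX2.

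**Figure D3:**
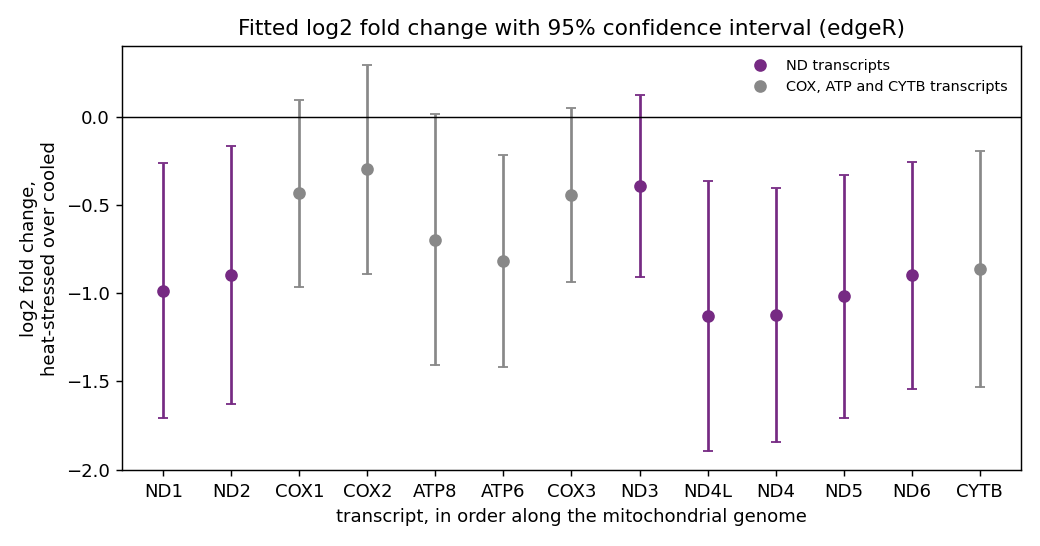
Points are fitted log2 fold changes of heat-stressed over cooled libraries (y) for the 13 mitochondrial transcripts in genome order (x). Bars are 95% confidence intervals derived from the edgeR F statistic, not adjusted for the number of transcripts or for the choice of members. ND4L and ND4 are lowest at -1.13 and -1.12, ND3 is at -0.39, and no transcript passed adjustment over all transcripts.

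When cooled replicate 4 and also heat-stressed replicate 6 were left out, the log2 fold changes were -1.43 for ND4L, -1.37 for ND4, -1.19 for ND5, -1.18 for ND1, -1.14 for ND2, -1.01 for ND6 and -0.41 for ND3. The edgeR adjusted p was 0.183 for 6 of them and 0.305 for ND3, over 26 alternatives that ran from 0.183 to 1.00. These libraries were left out because of where their values lay. That by itself can widen a difference, so the larger values are no support for it. Leaving out heat-stressed replicate 6 alone gave smaller differences for ND3, at -0.27, and for ND6, at -0.85, than all libraries did. Without both libraries, the ND share of all counts differed by -2.52 points and the ND share of the 13 transcripts by -4.41 points.

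Ratios between ND transcripts within a library do not depend on its total. ND4L and ND4 kept the tightest ratio of all 78 pairs among the 13 mitochondrial transcripts, with an SD of 0.15 on the log2 scale within groups, against 0.009 from counting error. ND4L counts were 9.71% ± 1.17 of ND4 counts in cooled libraries (SD, n = 7), from 7.84% in replicate 8 to 11.1% in replicate 3. They were 9.51% ± 0.762 in heat-stressed libraries (SD, n = 8), from 8.45% in replicate 2 to 10.7% in replicate 6. The groups overlapped almost fully, and the log2 ratio differed by -0.024 (two-sided exact permutation p = 0.761, adjusted p = 0.761 over 2 ratios, 95% interval -0.18 to 0.14). Per kb of full length, ND4L had 0.444 times the level of ND4, and per kb of effective length 2.17 times.

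ND6 and ND5, which lie next to each other on opposite strands, were compared in the same way. ND6 counts were 36.5% ± 7.57 of ND5 counts in cooled libraries (SD, n = 7), from 28.3% in replicate 8 to 50.6% in replicate 5. In heat-stressed libraries they were 38.5% ± 6.02 (SD, n = 8), from 29.0% in replicate 6 to 47.6% in replicate 8. The log2 ratio was 0.086 higher in heat-stressed libraries (two-sided exact permutation p = 0.526, adjusted p = 0.761 over 2 ratios, 95% interval -0.19 to 0.37). No difference was detected for either ratio, and the intervals hold differences of up to 0.18 and 0.37 log2 units.

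Of the 3 ratios shown by library, that of ND3 to ND4 varied most widely. It was looked at because ND3 had stood apart, so it has no test. Its log2 value was 0.49 ± 0.68 in cooled libraries (SD, n = 7), from -0.60 in replicate 3 to 1.400 in replicate 5. In heat-stressed libraries it was 1.12 ± 0.64 (SD, n = 8), from -0.19 in replicate 6 to 1.91 in replicate 2. ND3 made up 17.9% to 44.4% of all ND counts in cooled libraries and 23.8% to 52.2% in heat-stressed ones, with medians of 30.0% and 43.2%. The groups overlapped in both measures.

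**Figure D4:**
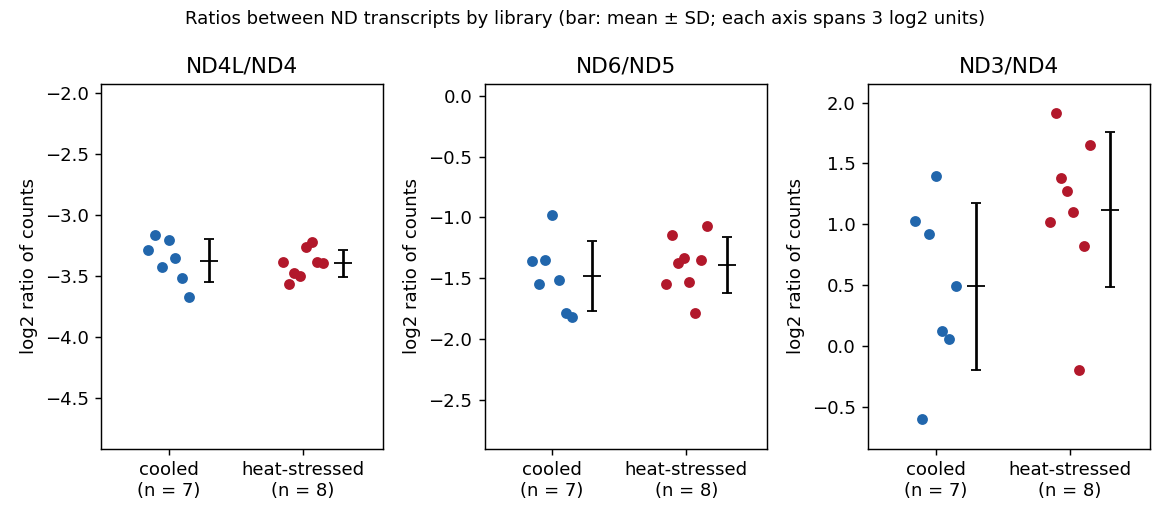
Each panel shows the log2 ratio of counts of a pair of ND transcripts (y) for every cooled and heat-stressed library, with the mean ± SD beside the points and the same span of axis in each panel. ND4L to ND4 stays within -3.67 to -3.17 in all libraries, while ND3 to ND4 runs from -0.60 to 1.91.

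Transcripts of adjacent genes often varied most closely together. For 7 of 7 ND transcripts, the transcript with the smallest SD of the log2 ratio among the other 12 was a direct neighbour in gene order. ND1 and ND2 were nearest to each other, with an SD of 0.17, ND4L and ND4 with 0.15, and ND5 and ND6 with 0.26. ND3 was nearest to COX3, the cytochrome c oxidase gene before it, with 0.25, whereas its ratio to ND4L, the gene after it, had an SD of 0.72, the second widest of the 78 pairs. ND2 with its neighbour COX1 was also wide, at 0.59.

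Over all 13 transcripts the nearest was a direct neighbour for 11, and the exceptions were ATP6, nearest to ND4, and CYTB, nearest to ATP6. The 12 neighbouring pairs had a median SD of 0.32, the 21 pairs 2 or 3 genes apart had 0.51, and the 45 pairs farther apart had 0.44. The 6 pairs of ND3 with another ND transcript had SDs from 0.50 to 0.72 with a median of 0.64, and the 15 ND pairs without ND3 from 0.15 to 0.53 with a median of 0.31. These SDs come from 15 libraries and are a description with no test.

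**Figure D5:**
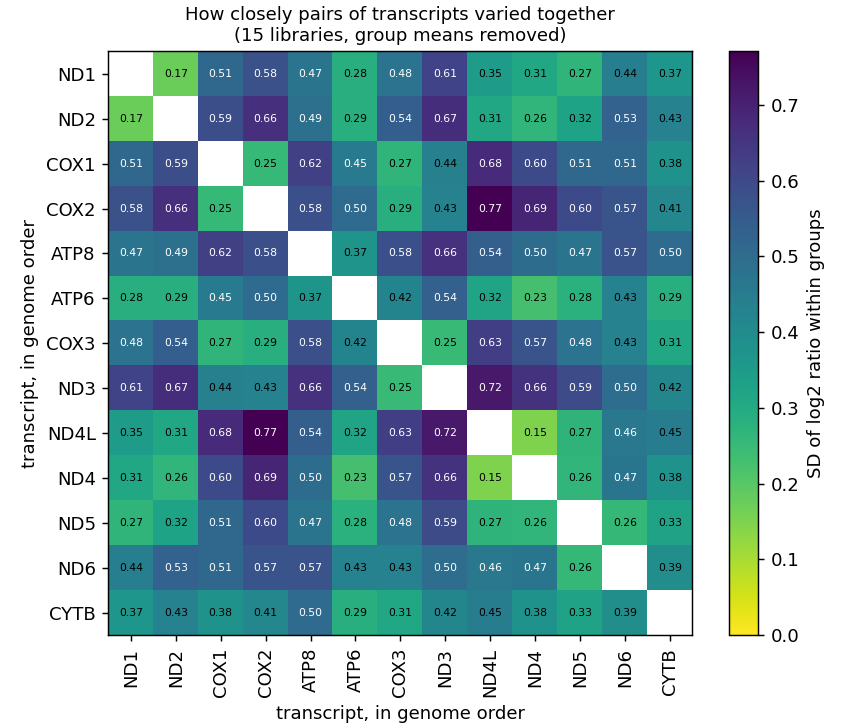
Each cell gives the SD of the log2 ratio of counts between the transcripts of its row and column, within groups over 15 libraries, and both axes follow gene order. Low values lie beside the diagonal for ND1 with ND2 (0.17), ND4L with ND4 (0.15) and COX3 with ND3 (0.25), and the step from ND3 to ND4L is 0.72.

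Transcripts outside the 13 rows were ranked by the likeness of their pattern to that of the summed ND counts, both as CPM of the counts outside the 13 rows. Over 15 libraries, the Spearman rho among 8426 transcripts with a mean of at least 10 such CPM had a median of 0.04 and a 95th percentile of 0.74. The nearest were ENSBTAT00000014642.4 (1961 nt, rho 0.93) and ENSBTAT00000053855.2 (3449 nt, rho 0.92). The first had a median of 10.3 CPM in cooled and 7.46 in heat-stressed libraries, and the second 30.7 and 19.1. The most opposed were ENSBTAT00000013662.6 (1803 nt) and ENSBTAT00000010081.6 (4411 nt), both with rho -0.85. Among the mitochondrial transcripts themselves rho with the ND sum ran from 0.60 for COX2 to 0.94 for ATP6 outside the ND genes, and ND3, a part of that sum, had 0.71. All these values share the same denominator and the same libraries, and each is a description with no test.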

How the data were processed

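Per the labels' protocols, a Qiagen RNeasy kit gave the total RNA and an NEBNext Ultra II kit the libraries. The submitters' processing notes name the build ARS-UCD1.2, the aligner STAR 2.7.10a and DESeq2 1.38.3 among their tools, without saying what each was used for. The quantifier is not given in the sources used here. Per the file headers, the deposited tables hold estimated counts per transcript and TPM, which are those counts per effective length scaled to the same total in every library. All 16 files have the same effective lengths, so the authors' TPM carried no fragment length fitted to a library, and shares of counts were preferred. RefSeq coordinates belong to another assembly and are not printed.

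Estimated counts were rounded (total changed by 2.6e-05%) and tested with edgeR 4.0.16 in R 4.3.3 (TMM, filterByExpr, robust quasi-likelihood fit, two-sided, Benjamini-Hochberg, threshold 0.05), after a check on simulated counts. A count of 0 would allow up to 3 counts, or 0.0542 to 0.0739 CPM, which covers counting error only. The 2 ratios were tested over all 6435 arrangements of the libraries, and their intervals hold the shifts that the exact test does not reject, in steps of 0.02. The 1 pair of identical files among 120 pairs was counted once, and other pairs differed by a chi-square per degree of freedom of at least 83.2. The members, lists and alternatives were chosen with earlier results of these data known. All 7 ND transcripts are named, together with the 2 outside transcripts nearest to and the 2 farthest from their summed pattern. Alternatives were 4 other scalings, 2 other filters, DESeq2 1.42.0, limma-voom (limma 3.58.1), a replicate block, both identical files kept, each library left out, and, added after seeing the data, 2 libraries left out together.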

Additional observations from a re-analysis of the deposited data

Results flagged for a closer look

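Dixon's test for a single distant library was applied to 28 groups of values drawn from the levels, ratios and shares of the ND transcripts. Of these, 1 passed its 95% limit, where chance gives about 1 in 20. The outcome depends on the scale of the values, and the levels above are plain CPM. On that scale heat-stressed replicate 6 also stood apart for ND4L, at 1238 CPM against 687 in the next library and 352 in the lowest. For ND4 it had 11562 CPM, against 7168 in the next and 4037 in the lowest. The 1 of 28 is therefore no measure of how many distant libraries there were. The 28 did not cover every share and ratio given above, so other distant libraries were not counted. ND5 made up 13.2% of ND counts in cooled replicate 3, against 8.75% in the next cooled library. ND counts were 56.6% of COX counts in heat-stressed replicate 6, against 35.0% in the next, replicate 7. In both cases the gap to the next library was a larger part of the group's range than in the 1 that passed. The 1 that passed was as follows. The ND share of the 13 mitochondrial transcripts in heat-stressed replicate 6 was 27.8%, and the next heat-stressed library, replicate 4, had 21.4%.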

How the results depend on the processing

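The log2 fold changes of the 7 ND transcripts were negative in 182 of 182 values over 26 alternatives, and 0 of the 7 passed in any of them. Since their direction was known beforehand, this adds no support. Library-size scaling, under which the median of all transcripts was 0.05 in place of -0.06, gave -0.27 for ND3 to -0.95 for ND4L. The count over all transcripts was 57 of 27524 with DESeq2, 0 to 1 with each library left out (1 without cooled replicate 4) and 1 when heat-stressed replicate 6 was also left out, none of them an ND transcript. The difference in the ND share of the 13 transcripts was 0.30 points by TPM, opposite to that by counts, and -4.44 points by medians. By rank of level, 3 of 7 ND transcripts kept their place per kb of effective length, and 3 of 7 in counts not divided by length.

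The ND4L to ND4 difference ran from -0.073 to 0.011 with each library left out, and changed sign when cooled replicate 3 or 5 or heat-stressed replicate 2 was left out. The ND6 to ND5 difference ran from 0.030 to 0.17, and was -0.064 with the other 6 ND transcripts as denominator. No pairing of libraries by replicate number was detected, although correlations alone cannot exclude it. Of 7 same-numbered pairs, 2 correlated over 0.1 (-0.211 to 0.127), and 1 of 7 heat-stressed libraries correlated best with its own number. With the replicate block the edgeR count stayed 0 (512 at an unadjusted p under 0.05, against 436 without it), the ND fold changes ran from -0.87 for ND4 to -0.37 for ND3, and the paired ratios differed by 0.00028 for ND4L to ND4 and 0.051 for ND6 to ND5 (exact sign-flip p = 1 and 0.797).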
